A study of Rattus norvegicus with 2 samples.

Results

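The genes described here encode the machinery through which newly made secretory and membrane proteins enter the endoplasmic reticulum (ER) and receive their first modifications. They are the subunits of the signal recognition particle (SRP) and its receptor, of the SEC61 translocon, of the translocon-associated protein (TRAP) complex, of signal peptidase and of oligosaccharyltransferase (OST). The members were chosen by name from a list of 35 symbols, and every probe set annotated to a single gene of that list was taken. Srpr and Srpra are names of the same gene, so the list stands for 34 genes, and all of them were measured. They were read by 53 of the 20826 probe sets that name a single gene, and Srp54 was found under its current symbol, Srp54a.

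Expression was measured in the adrenal medulla of Sprague-Dawley rats in 2 groups. The 2RH30 rats had been given human insulin (2 IU/kg, intraperitoneal) in the 3 days before, 2 times per day, to cause recurrent hypoglycemia (RH), and the 2RS30 rats had been given saline in the same way. According to the methods of the study the last of these days had only a morning injection. Both groups then underwent a hyperinsulinemic-hypoglycemic clamp on day 4, with glucose held at 40 to 50 mg/dL according to the labels, and tissue was taken 30 min after the target had been reached. The comparison therefore asks how animals with and without a history of RH differ during the same hypoglycemia. Each group was measured on 1 Affymetrix rat array that received the combined RNA of 6 male rats. With 1 array per group there is no replicate, no error and no p-value, and every difference below is one between these 2 pools, given as the log2 value of 2RH30 minus that of 2RS30.

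A protein destined for secretion is recognized by SRP as its signal peptide emerges from the ribosome. SRP carries the ribosome to its receptor on the ER membrane, and the growing chain passes through the SEC61 channel with the help of TRAP and TRAM1. Signal peptidase removes the signal peptide, and OST attaches a preassembled sugar chain to asparagine residues. Chromaffin cells of the adrenal medulla depend on this route for the granins, neuropeptide precursors and the glycoprotein dopamine beta-hydroxylase that fill their secretory granules.

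The 2 arrays differed in ways that reach all genes. Over 20 bins of rising mean level, the median difference passed from -0.38 at the dim end to 0.49 at the bright end. For this reason each difference is also given after a lowess curve of difference on mean level was subtracted, which is called level-adjusted. The hybridization controls were lower in 2RH30, with mean differences from -3.25 (BioB) to -0.41 (Cre). Probe sets of the same gene that were not dim, where dim means below the array median on both arrays, differed among themselves with an SD of 0.86 at mean levels of 5 to 7 and of 0.63 at higher levels. This SD holds no spread between animals. The tissue label was checked against markers. Of 7 listed chromaffin markers 6 were read, from 6.36 to 11.5 in 2RS30 and from 6.69 to 12.0 in 2RH30, with differences from 0.31 to 0.95 (level-adjusted -0.27 to 0.45). Of 7 listed adrenal cortex markers 5 were read as well, from 8.73 to 11.8 and from 9.06 to 12.5, with differences from 0.33 to 0.80 (level-adjusted -0.18 to 0.22). Both pools thus held RNA of cortex markers beside that of chromaffin markers, and the share of cortex was not measured. Of 7 macrophage and leukocyte markers 4 were 2-fold or more higher in 2RH30 and 0 lower, also level-adjusted. Over all genes the shares were 11.5% and 9.62% (level-adjusted 8.95% and 9.31%). Their differences ran from -0.77 (Csf1r) to 2.71 (C1qa), level-adjusted -0.89 to 3.04. Their values ran from 3.06 to 6.92 in 2RS30 and from 5.17 to 7.95 in 2RH30. C1qa had the 3.06, under the 5th percentile of 2RS30, 3.67. Of 6 B and plasma cell markers read 2 were 2-fold or more lower and 0 higher, also level-adjusted, beside the same shares. They differed by -1.49 to 0.77 (level-adjusted -1.74 to 0.63), with values from 4.67 to 7.28 and from 4.24 to 6.92. Endothelial, Schwann cell and fibroblast markers differed by -0.56 to 0.48, -0.18 to 0.09 and -0.68 to 0.72. The part of these cell types in the results below was not tested, and in pooled tissue fewer cells of a type cannot be told apart from less RNA per cell.

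Over the whole entry route, the value of most genes was higher in the 2RH30 pool, and this excess was smaller once the level trend was removed. With 1 probe set per gene, the brightest on average, 27 of 34 genes lay above 0 (79.4%, against 56.1% of all 14217 genes), with a median of 0.42 against 0.11 over all genes. Level-adjusted, 19 of 34 lay above 0 (55.9%, against 51.2% of all genes), and the median was 0.18 against 0.02. A value 2-fold or more higher in 2RH30 was found for 8 of 34 genes, where 11.5% of all genes were that much higher, and a value 2-fold or more lower for 0, where 9.62% of all genes were. Level-adjusted, these counts were 4 and 1, beside 8.95% and 9.31% of all genes. Only 3 of the 34 genes were dim, that is, below the median of both arrays. Among all 9869 genes that were not dim, 63.9% lay above 0, with a median of 0.26 (level-adjusted 49.4% and -0.01). Of these, 1478 were 2-fold or more higher and 753 lower.

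Counted by probe set, 10 of 53 were 2-fold or more higher and 4 were lower, beside 11.8% and 10.4% of all probe sets that name a single gene. Level-adjusted, 6 were higher and 4 lower, beside 9.98% and 9.18%. The median over the 53 probe sets was 0.38 as deposited and 0.05 level-adjusted, and over all probe sets that name a single gene 0.08 and 0.04. Of the 53 probe sets 9 were dim (17.0%, against 36.0% of all). Among the 44 that were not dim, 9 were 2-fold or more higher and 2 lower, beside 16.5% and 7.97% of all probe sets that were not dim and name a single gene. The plot of differences against level shows that most member probe sets lie in the part of the array where differences tend to be above 0.

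**Figure D1:**
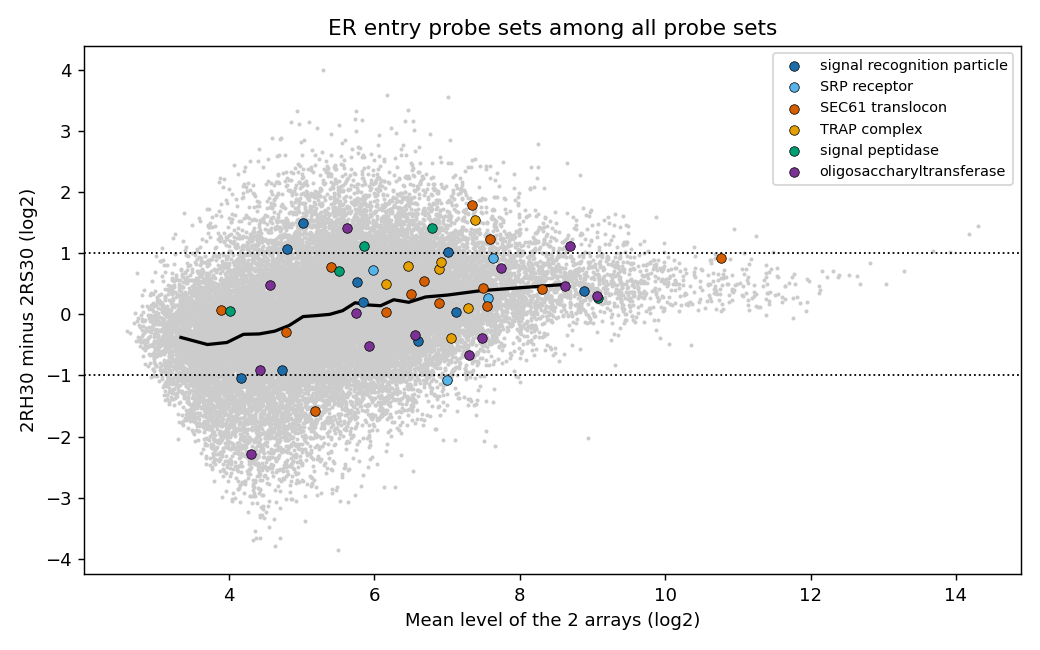
The vertical axis is the 2RH30 minus 2RS30 difference (log2) and the horizontal axis the level averaged over both arrays (log2), for every probe set (grey) and for the 53 probe sets of the ER entry genes (coloured by complex), with a black line through the medians of 20 level bins and 2-fold differences as dotted lines. Of the 53 probe sets, 10 lie at or above the upper dotted line and 4 at or below the lower.

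The promoters of 4 genes are shown first, because they belong to the genes with the highest difference in the TRAP complex (Ssr1), signal peptidase (Spcs2) and OST (Rpn1) and to the other ribophorin, Rpn2, which had a lower value in 2RH30. They were picked after the values had been seen. Each run is the 150 bases before the annotated start in RefSeq for the GRCr8 assembly, 5′ to 3′ on the strand of the gene. Ssr1 lies at chr17:27039143-27039292, plus strand, Spcs2 at chr1:163595270-163595419, minus strand, Rpn1 at chr4:122100826-122100975, plus strand and Rpn2 at chr3:166361917-166362066, plus strand. Capitals mark CCAAT and CCACG on either strand, the 2 ends of the ER stress response element (ERSE).
Ssr1: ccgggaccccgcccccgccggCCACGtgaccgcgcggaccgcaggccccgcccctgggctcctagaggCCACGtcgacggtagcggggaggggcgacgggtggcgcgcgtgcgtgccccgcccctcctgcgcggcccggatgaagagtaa
Spcs2: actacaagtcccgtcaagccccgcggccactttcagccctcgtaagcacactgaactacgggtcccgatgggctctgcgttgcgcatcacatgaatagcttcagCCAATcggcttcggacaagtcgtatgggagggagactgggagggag
Rpn1: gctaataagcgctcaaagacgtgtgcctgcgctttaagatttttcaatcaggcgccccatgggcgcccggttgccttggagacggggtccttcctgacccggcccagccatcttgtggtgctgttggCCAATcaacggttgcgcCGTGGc
Rpn2: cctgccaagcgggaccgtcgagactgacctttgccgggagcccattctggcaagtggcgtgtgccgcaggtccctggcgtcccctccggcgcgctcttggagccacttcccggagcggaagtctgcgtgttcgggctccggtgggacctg

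The ERSE is bound by ATF6 together with NF-Y and is known from promoters of ER chaperones. Promoter windows of 300 bases, 250 before and 50 after the start, were held for 30 of the 34 genes. Sec61a1, Sec61a2, Tram1 and Tusc3 were not among them. On both strands, the whole ERSE (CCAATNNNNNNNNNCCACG) was found in 0 of these 30 and in 0.0765% of the windows of 27457 genes, and the shorter ERSE-II (ATTGGNCCACG) in 0 and 0.0619%. The UPR element TGACGTGG, whose opposite strand holds CCACG, was found in Srp19 alone, against 0.681% of genes. CCAAT was found in 11 of 30 (36.7%, against 39.6% of genes), CCACG in 14 (46.7%, against 34.1%), and both, at any distance and in any order, in 8 (26.7%, against 12.5%). The differences between these shares were not tested, and the windows were not matched for base composition. These matches describe letters and not bound sites, and a missing match says only that these letters are not in the window. In the runs above, Rpn1 had CCAAT and the opposite strand of CCACG close to its start, Spcs2 had CCAAT only, Ssr1 had CCACG 2 times, and Rpn2 had neither.

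The SRP subunits did not go the same way. SRP9 and SRP14 together bind the end of the particle that slows translation. Srp9 read 4.26 in 2RS30 and 5.34 in 2RH30, differing by 1.07 (level-adjusted 1.26) from a dim probe set. Srp14 read 5.50 and 6.03, a difference of 0.52 (level-adjusted 0.38). Both were higher in 2RH30. SRP54 is the subunit that binds the signal peptide and GTP. Its gene, Srp54, was lower in 2RH30 in each of 3 probe sets. The probe set with the highest mean level read 6.82 in 2RS30 and 6.38 in 2RH30, differing by -0.44 (level-adjusted -0.70), and the other 2, both dim, differed by -0.91 and -1.04 (level-adjusted -0.69 and -0.63). After level adjustment its 3 probe sets thus lay close together.

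SRP68 and SRP72 form a pair that holds the particle together. Srp72 was higher in 2RH30 in 3 probe sets. They read 6.51, 5.75 and 4.28 in 2RS30 and 7.53, 5.95 and 5.77 in 2RH30, differences of 1.01, 0.20 and 1.49 (level-adjusted 0.69, 0.05 and 1.59). Its partner Srp68 read 7.10 and 7.14, a difference of 0.04 (level-adjusted -0.30). Srp19, which helps assemble the particle on its RNA, read 8.69 and 9.07, a difference of 0.38 (level-adjusted -0.13). Over the 6 SRP genes the median was 0.45 as deposited and 0.13 level-adjusted.

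The SRP receptor has an alpha subunit that meets SRP and a beta subunit that anchors it in the membrane. Srpra, for the alpha subunit, read 7.44 in 2RS30 and 7.70 in 2RH30, differing by 0.26 (level-adjusted -0.14). Srprb, for the beta subunit, was read by 3 probe sets that did not go the same way. They read 7.17, 7.54 and 5.62 in 2RS30 and 8.09, 6.46 and 6.35 in 2RH30, differences of 0.92, -1.07 and 0.73 (level-adjusted 0.51, -1.39 and 0.56). No direction can be given for Srprb from these values.

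All 7 genes of the SEC61 translocon group had a higher value in 2RH30 as deposited, with a median of 0.43, and 5 of 7 did level-adjusted, with a median of 0.09. Sec61a1, which encodes the pore-forming alpha subunit, had the highest difference of the group. Its 3 probe sets read 6.97, 6.44 and 6.15 in 2RS30 and 8.21, 8.24 and 6.19 in 2RH30, differences of 1.24, 1.79 and 0.04 (level-adjusted 0.83, 1.42 and -0.15). The probe set at 1.79, a 3.47-fold higher value, was the highest of all 53. Sec61a2, for the other isoform of the pore, read 6.34 and 6.68, a difference of 0.33 (level-adjusted 0.09).

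The small subunits of the channel differed less. Sec61b read 8.10 in 2RS30 and 8.51 in 2RH30, differing by 0.41 (level-adjusted -0.07). Sec61g read 7.49 and 7.63, a difference of 0.14 (level-adjusted -0.26). Subunits of the same trimer thus had differences from 0.14 to 1.24 in the brightest probe set of each gene.

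SEC62 and SEC63 serve proteins that enter the ER after translation, and SEC63 brings the chaperone BiP to the channel. Sec62 was higher in 2RH30 in both probe sets, which read 7.29 and 5.03 in 2RS30 and 7.72 and 5.80 in 2RH30, differences of 0.43 and 0.77 (level-adjusted 0.04 and 0.73). Sec63 was read by 4 probe sets, at 6.41, 5.98, 4.94 and 3.85 in 2RS30 and at 6.95, 4.40, 4.65 and 3.92 in 2RH30. They differed by 0.54, -1.58, -0.29 and 0.07 (level-adjusted 0.27, -1.54, -0.10 and 0.52). This is the widest disagreement in the group, and no direction can be given for Sec63. Tram1, for a membrane protein that helps nascent chains into the channel, read 10.3 and 6.80 in 2RS30 and 11.2 and 6.99 in 2RH30, differences of 0.91 and 0.19 (level-adjusted 0.36 and -0.11).

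TRAP is a 4-subunit complex beside the channel. Ssr1 encodes its alpha subunit and read 6.62 in 2RS30 and 8.16 in 2RH30, differing by 1.54 (level-adjusted 1.16). Its other probe set read 7.24 and 7.35, a difference of 0.11 (level-adjusted -0.25), so that the 2-fold difference of Ssr1 stands in 1 of 2 probe sets. Ssr2, for the beta subunit, read 5.92 and 6.41, a difference of 0.49 (level-adjusted 0.30). Ssr4, for the delta subunit, read 6.48 and 7.34, a difference of 0.86 (level-adjusted 0.55). Ssr2 and Ssr4 were higher in 2RH30 in both forms.

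The gamma subunit gene Ssr3 depended on the probe set. The one with the highest mean level read 7.26 and 6.87, a difference of -0.39 (level-adjusted -0.72). The other 2 read 6.53 and 6.07 in 2RS30 and 7.26 and 6.86 in 2RH30, differences of 0.73 and 0.79 (level-adjusted 0.43 and 0.55). Of the 7 probe sets of the TRAP complex 6 lay above 0, with a median of 0.73, and 5 did level-adjusted, with a median of 0.43.

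The signal peptidase genes had a median of 0.72 as deposited and 0.64 level-adjusted, and with 1 probe set per gene the TRAP genes had 0.68 and 0.43. By probe set the order as deposited was the other way, at 0.72 and 0.73. All 5 lay above 0 as deposited and 4 level-adjusted, but each was read by a single probe set, so no other reading was available. Spcs2 encodes an accessory subunit and read 6.09 in 2RS30 and 7.50 in 2RH30, differing by 1.41, or 2.66-fold (level-adjusted 1.13). Sec11a and Sec11c encode the alternative catalytic subunits. Sec11a read 5.30 and 6.42, a difference of 1.12 (level-adjusted 0.97), and Sec11c read 5.16 and 5.87, a difference of 0.72 (level-adjusted 0.64). Both catalytic subunits thus had a higher value in 2RH30 in both forms.

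The other 2 subunits differed less. Spcs1 read 8.95 in 2RS30 and 9.21 in 2RH30, differing by 0.27 (level-adjusted -0.25). Spcs3 was dim, at 3.99 and 4.05, a difference of 0.06 (level-adjusted 0.49), and its level-adjusted value rests on the correction at the dim end.

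**Figure D2:**
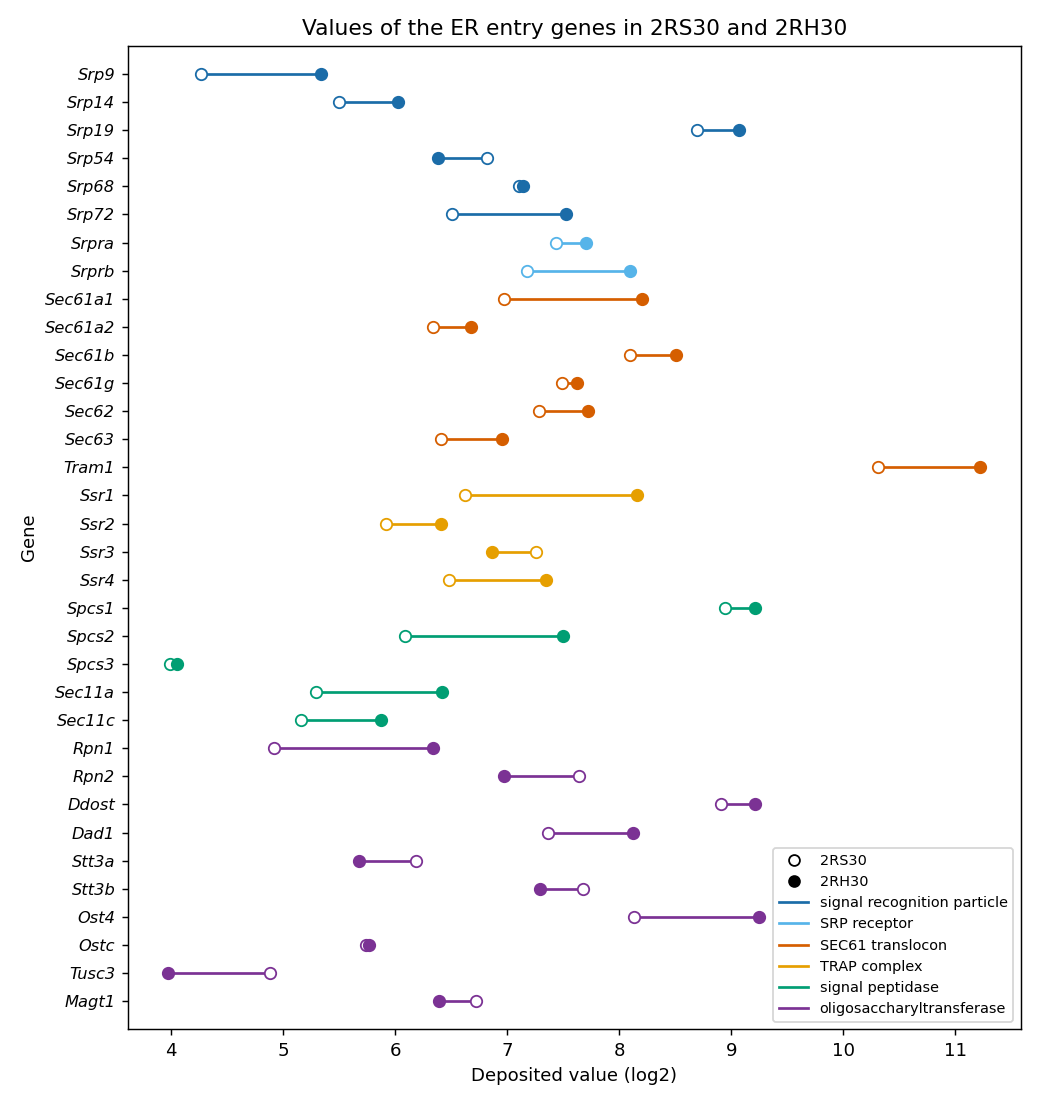
Deposited value (log2, horizontal axis) of each of the 34 genes (vertical axis, coloured by complex) in 2RS30 (open) and 2RH30 (filled), read from the probe set with the highest mean level. The filled circle lies to the right of the open one for 27 genes, and 5 of the 7 exceptions are OST genes; values are not comparable between genes.

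With 1 probe set per gene, OST stood apart in its direction from the complexes that act before it, a pattern noticed in these data and not tested. Its 10 genes were split, with 5 above 0 and 5 below, and had a median of -0.15 (level-adjusted -0.40). The share above 0 was thus 50.0%, near the 56.1% of all genes. Level-adjusted, 3 of 10 lay above 0 (30.0%, against 51.2% of all genes). Counted by probe set, 7 of 13 lay above 0 with a median of 0.03, and level-adjusted 4 did with a median of -0.21. The SRP genes (3 of 6 above 0) and SRP receptor genes (1 of 2) were also split once level-adjusted. Over the 24 genes of the 5 other complexes, 22 lay above 0 (91.7%) with a median of 0.51, and level-adjusted 16 did (66.7%) with a median of 0.33. As deposited it was thus these complexes, more than OST, that lay away from the share of all genes. The exceptions as deposited were Srp54 and Ssr3. Srprb and Sec63 are among the 22 and Ssr3 among the exceptions, although the probe sets of each went both ways. At 2-fold, 2 of the 10 OST genes were higher and 0 lower, and 6 and 0 of the 24 others, beside 11.5% and 9.62% of all genes. Level-adjusted, these counts were 1 and 1 for OST and 3 and 0 for the others, beside 8.95% and 9.31%. The median of OST lay between -0.41 and 0.04 under the alternatives tried, so that its sign depends on the processing.

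OST exists in 2 forms with different catalytic subunits. STT3A works on chains as they pass the translocon, and STT3B takes sites that were missed. RPN1, RPN2, DDOST, DAD1 and OST4 are shared by both forms, whereas OSTC belongs to the STT3A form and TUSC3 or MAGT1 to the STT3B form. The 5 listed genes for catalytic or form-specific subunits had a median of -0.38 (level-adjusted -0.59). As deposited 4 of them lay below 0 and level-adjusted all 5 did. The 5 listed genes for shared subunits had a median of 0.75 (level-adjusted 0.33), with 4 above 0 as deposited and 3 level-adjusted. Outside the list, further OST subunit genes went the other way. Krtcap2, of the STT3A form, differed by 0.57 (level-adjusted 0.17) and the shared Tmem258 by -0.59 (level-adjusted -0.85). Both are counted with the translocon partners below.

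Stt3a was lower in 2RH30 in both probe sets. They read 6.19 and 5.44 in 2RS30 and 5.68 and 3.16 in 2RH30, differences of -0.51 and -2.28 (level-adjusted -0.68 and -1.91). The latter, a 4.85-fold lower value, was the lowest of all 53 probe sets, but that probe set was dim and its 2RH30 value lay at the 5th percentile of the array, 3.16. Stt3b read 7.68 and 4.33 in 2RS30 and 7.29 and 4.81 in 2RH30, differences of -0.38 and 0.48 (level-adjusted -0.77 and 0.76), so that its dim probe set went the other way. The oxidoreductase genes Magt1 and Tusc3 had 1 probe set each. Magt1 read 6.73 and 6.39, a difference of -0.34 (level-adjusted -0.59). Tusc3 was dim at 4.88 and 3.98, a difference of -0.91 (level-adjusted -0.58). Ostc read 5.74 and 5.77, a difference of 0.03 (level-adjusted -0.11).

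Among the shared subunits, the ribophorins lay at opposite ends. Rpn1 read 4.92 in 2RS30 and 6.33 in 2RH30, differing by 1.41 (level-adjusted 1.30). Rpn2 read 7.64 and 6.97, a difference of -0.67 (level-adjusted -1.03). The 2 differences were 2.08 apart (level-adjusted 2.34), each rests on 1 probe set, and the pair was singled out after its values were seen. Ost4, which encodes the smallest subunit, was higher in 2RH30 in both probe sets, at 8.13 and 8.39 in 2RS30 and 9.25 and 8.86 in 2RH30, differences of 1.12 and 0.47 (level-adjusted 0.62 and -0.03). Dad1, named for its defence against apoptotic cell death, read 7.37 and 8.12, a difference of 0.75 (level-adjusted 0.33). Ddost, for the subunit OST48, read 8.91 and 9.21, a difference of 0.30 (level-adjusted -0.21).

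**Figure D3:**
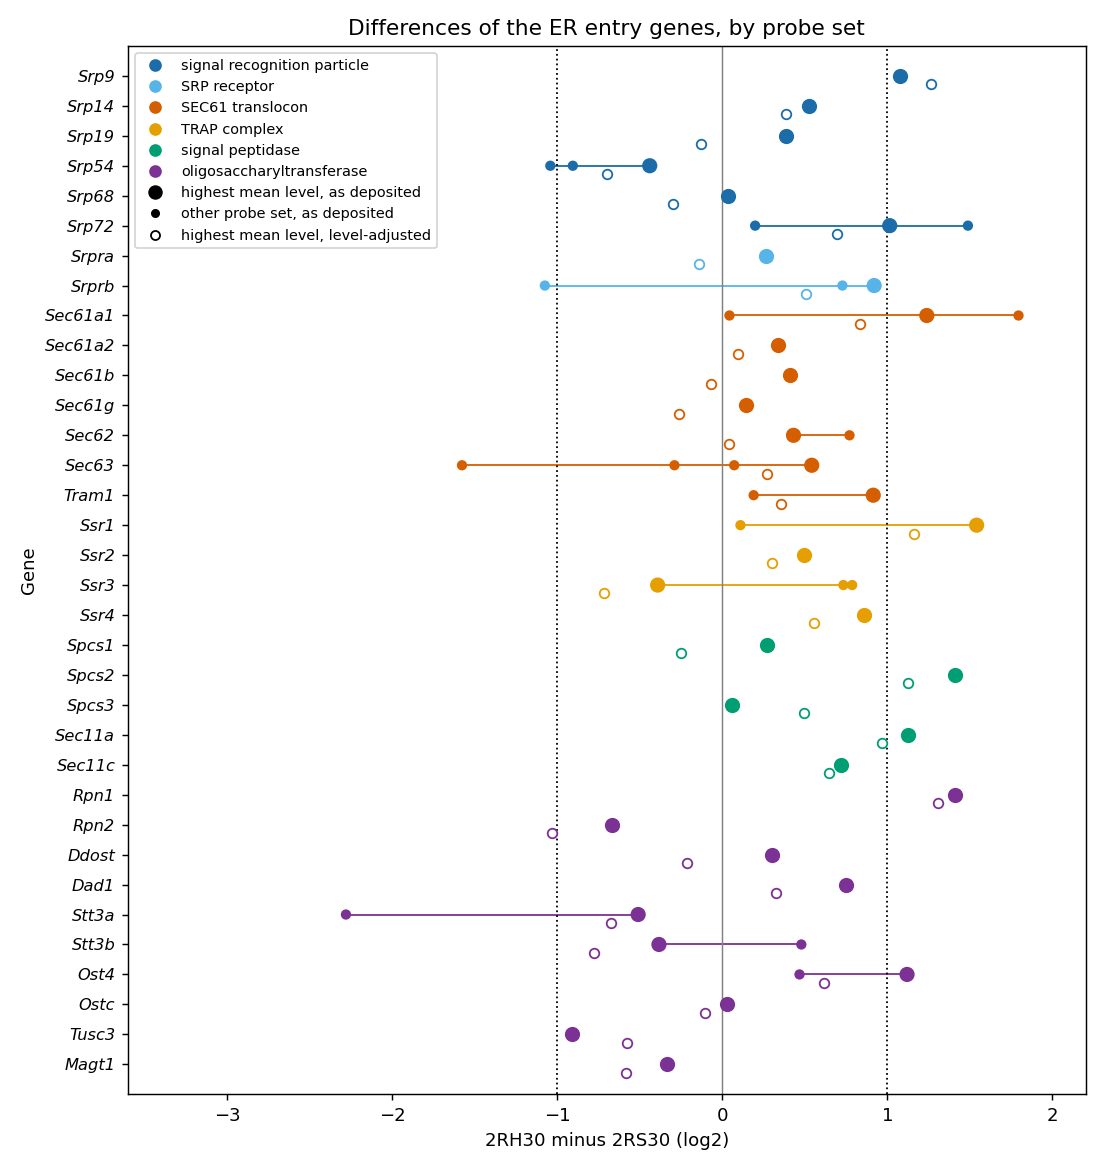
The horizontal axis is the 2RH30 minus 2RS30 difference (log2), for every probe set of the 34 genes (vertical axis, coloured by complex), with the probe set of the highest mean level as a large filled point, the others as small points joined by a line, and its level-adjusted difference as an open circle. Dotted lines mark 2-fold differences; Stt3a reaches -2.28 and Sec61a1 1.79, and Srprb, Sec63, Ssr3 and Stt3b have probe sets on both sides of 0.

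How far a gene can be read was judged from its probe sets. Of the 34 genes 22 had 1 probe set and 12 had several. For 8 of the 12 (66.7%) all probe sets lay on the same side of 0 as deposited, as they did for 48.7% of 4525 such genes on the array. The share of all genes was not computed level-adjusted, so this comparison holds only for the deposited values. Srp72, Sec61a1, Sec62, Tram1, Ssr1 and Ost4 were higher in 2RH30 in every probe set as deposited, and Srp54 and Stt3a were lower. Level-adjusted, only these kept all probe sets on the same side: Srp72 and Sec62 above 0, and Srp54 and Stt3a below it. Sec61a1, Tram1, Ssr1 and Ost4 each had 1 probe set below 0 level-adjusted. Of the 8 genes that were 2-fold or more higher, Srp9, Spcs2, Sec11a and Rpn1 had 1 probe set, and Srp72, Sec61a1, Ssr1 and Ost4 had at least 1 other probe set below 2-fold.

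Genes that work beside or after the entry route were compared in the same way, as lists by function. Of 22 genes for other membrane insertases (the ER membrane protein complex, the tail-anchor pathway and the multipass translocon), 8 were 2-fold or more higher in 2RH30 and 1 was that much lower (3 and 1 level-adjusted), beside 11.5% and 9.62% of all genes (8.95% and 9.31% level-adjusted), with a median of 0.67 (level-adjusted 0.25). Emc6, a subunit of the ER membrane protein complex, had the highest difference, 2.87 (level-adjusted 3.10). It read 3.27 in 2RS30, under the 5th percentile of that array, 3.67, and 6.14 in 2RH30. Ccdc47, a part of the multipass translocon, had the lowest, -1.45 (level-adjusted -1.64), from 6.86 to 5.41. These were 8 of 22 genes here and 8 of 34 on the entry route (3 and 4 level-adjusted), and the difference was not tested.

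The sugar chain that OST transfers is built on dolichol. Of 19 genes for its assembly that were read, 1 was 2-fold or more higher and 1 lower, and level-adjusted 0 and 2, with a median of 0.27 (level-adjusted 0.15). These counts lie near or below the same shares of all genes. Alg11 and Alg1, both mannosyltransferases, were the highest and the lowest, at 1.09 and -1.23 (level-adjusted 0.68 and -1.49). Of 14 genes for glycan trimming and lectins, 2 were higher and 0 lower, and level-adjusted 2 and 1, beside the same 11.5% and 9.62% (level-adjusted 8.95% and 9.31%), with a median of 0.38 (level-adjusted 0.01). Uggt1, the glucosyltransferase that senses unfolded glycoproteins, read 4.54 and 6.81, a difference of 2.27 (level-adjusted 2.16). Mogs, the glucosidase that starts trimming, read 6.58 and 5.68, a difference of -0.91 (level-adjusted -1.10).

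Of 13 genes read for the COPII coat, which carries proteins out of the ER, 1 was higher and 0 lower, also level-adjusted, beside 11.5% and 9.62% of all genes (level-adjusted 8.95% and 9.31%), with a median of 0.49 (level-adjusted 0.24). Preb, which activates the COPII GTPase SAR1, had the highest difference, 1.46 (level-adjusted 1.25), and the coat subunit gene Sec23b the lowest, -0.49 (level-adjusted -0.75). Of 11 translocon partners read, 3 were higher and 1 lower, and level-adjusted 1 and 1, beside those shares, with a median of 0.57 (level-adjusted 0.17). Naca, a subunit of the nascent polypeptide-associated complex, differed by 1.33 (level-adjusted 0.88), and Ckap4, a protein of ER sheets, by -1.24 (level-adjusted -1.62). The medians of these 5 lists were above that of all genes as deposited, and the glycan trimming list was below it level-adjusted.

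**Figure D4:**
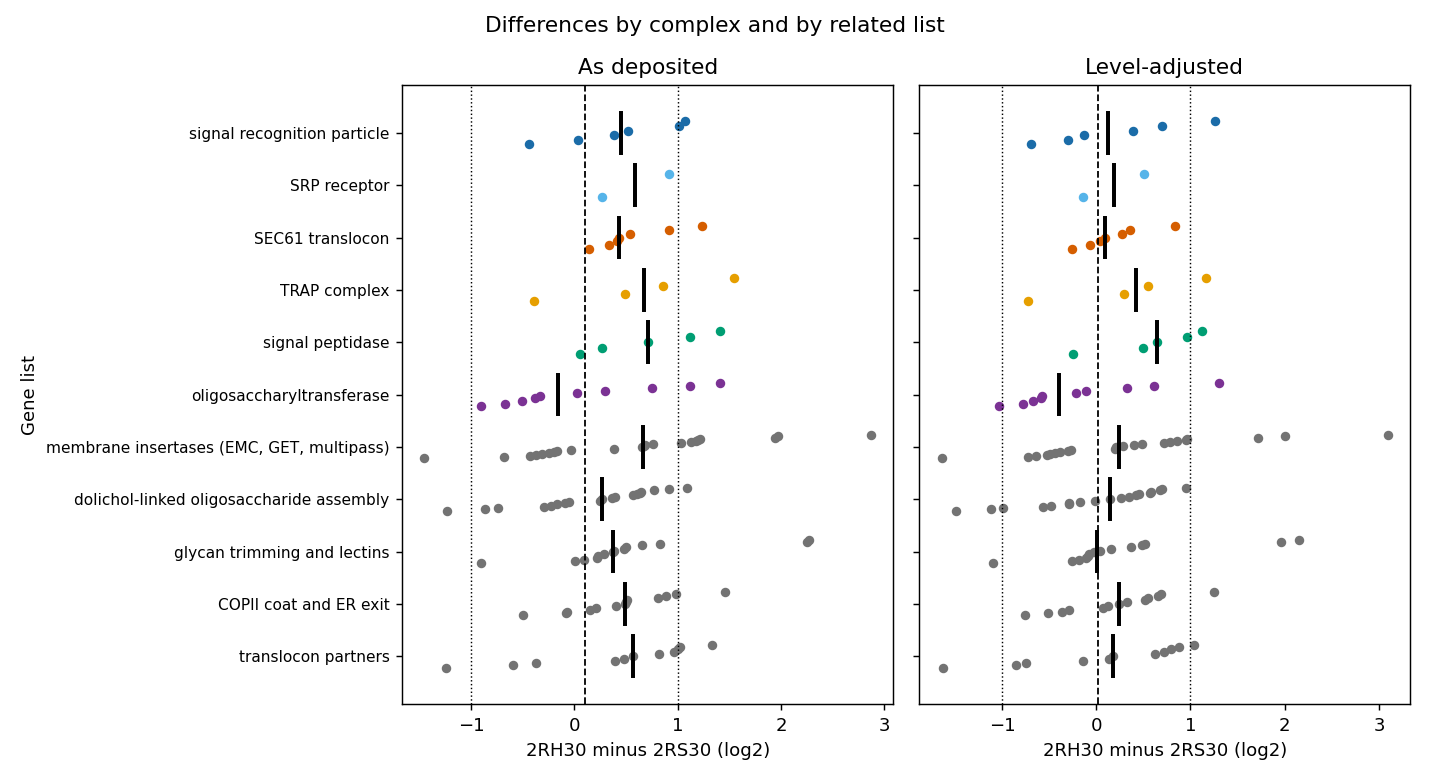
The 2RH30 minus 2RS30 difference (log2) is plotted on the horizontal axis for each gene of the 6 complexes (coloured) and of the 5 related lists (grey), as deposited on the left and level-adjusted on the right, with each list's median as a black bar. The dashed line is the median of all genes (0.11 on the left, 0.02 on the right) and dotted lines mark 2-fold differences; the OST median, -0.15 and -0.40, is the only one of the 6 complexes below the dashed line in both panels.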

How the data were processed

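Adrenal medulla RNA of 6 rats was combined for each of 2RS30 and 2RH30 and measured on 1 Affymetrix rat expression array per group. The authors deposited a log2 value for each of 31099 probe sets, read as log2 from the range of the values. Their processing notes name Affymetrix Expression Console, and the paper describes quantile-normalized data. The 2 columns used here do not share a distribution, as values quantile-normalized together would. Their SD was 1.28 in 2RS30 and 1.57 in 2RH30, and their 5th percentile 3.67 and 3.16. The methods of the paper name GCRMA normalization in Partek for the analysis of the study, and the step that gave the deposited values was not settled here. Short-oligonucleotide summaries can compress differences of dim probe sets, and whether they did so here was not tested. With 1 array per group it is the number of arrays that limits precision.

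After 57 controls were set aside, 20826 of 31042 probe sets named a single gene in the platform annotation. Symbols were updated by gene number through RefSeq (GRCr8), where 20758 matched. Where a gene had several probe sets, the brightest on average stood for it. The result is the value of 2RH30 minus that of 2RS30, with no test. Level adjustment subtracted a lowess curve (fraction 0.3, 3 iterations). The 2-fold threshold is that of the study. Alternatives were median centring, quantile normalization, the lowess adjustment, leaving out dim or multi-transcript probe sets, 1.5-fold and 3-fold thresholds, and other summaries per gene. Every member is named, and of each related list the highest and lowest gene that is not dim, besides Krtcap2 and Tmem258. The members and lists were chosen with earlier results of these data known. Of the related and marker genes, those without a probe set naming a single gene were not used here. Python 3.11.15, pandas 2.3.3, numpy 2.4.6, statsmodels 0.14.6 and matplotlib 3.10.9 were used.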

Additional observations from a re-analysis of the deposited data

How the results depend on the processing

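No paired analysis was possible because there was only 1 array per group. Against 10 member probe sets 2-fold or more higher and 4 lower, the lowess adjustment gave 6 higher, and leaving out dim probe sets gave 2 lower. Thresholds of 1.5-fold and 3-fold gave 19 and 7, and 1 and 1, which differ by construction. With 1 probe set per gene 0 were lower, because none of the 4 lower probe sets was the brightest of its gene. The median of 0.42 over the member genes was 0.20 after quantile normalization and 0.18 after lowess. The OST median of -0.15 was -0.41 after quantile normalization, -0.40 after lowess, 0.03 without dim or without multi-transcript probe sets, and 0.04 with the mean over probe sets. Among the alternative values for single genes, 198 moved by no more than 0.82, the SD pooled over all genes with several probe sets that are not dim, and Sec63 (-0.31) and Stt3a (-1.39), both with the mean over probe sets, moved by more. Much of this was fixed in advance. Median centring shifted every gene alike, and the 22 genes with 1 probe set could not move when probe sets were averaged or left out. No gene at 2-fold or more changed sign. Some smaller differences did, as for Ddost, from 0.30 to -0.21 after lowess. Beyond the counts that differ by construction or by the choice of probe set, the cause was not tested. The deposited values carry no background level, so the limit of detection of dim probe sets is unknown.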

Other observations

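A pair of probe sets named both Srprb and Tf, the transferrin gene, and therefore stood outside the rule for members. They read 6.78 and 4.30 in 2RS30 and 7.13 and 3.30 in 2RH30, differences of 0.35 and -0.99 (level-adjusted 0.04 and -0.54). Like the 3 probe sets of Srprb alone, they did not go the same way.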
